A study of Mus musculus with 2 samples.

Results

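The CD300 family is a set of immunoglobulin-type receptors that myeloid cells carry on their surface and that bind lipids of dying cells and membranes. Its 5 members described here, Cd300a, Cd300lf, Cd300ld, Cd300lb and Cd300e, were chosen by gene symbol among 32285 genes of the count matrices, and all 5 had UMIs in both libraries. UMIs (unique molecular identifiers, one for each captured transcript) were summed over the cells of each library and cell type and are given as CPM, that is, scaled to an equal total of UMIs for every group of cells.

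Blood neutrophils were studied in WT mice and in APP/PS1 mice, a transgenic model of Alzheimer's disease that carries mutant human genes for the amyloid precursor protein and presenilin. The mice were female and 7 months old, 3 animals were pooled for each genotype, and neutrophils were enriched by removing other cells before 3′ single-cell libraries were made. The promoter that drives the transgenes is not given in the sources used here. With 1 library per genotype there was no replicate, so no test was made: the 95% intervals cover counting error only, and genotype, pool and library cannot be told apart.

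The matrices hold 17123 WT and 17645 APP/PS1 cells, with medians of 3345 and 3115 UMIs, and 83 cell barcodes occurred in both. After filtering, 29772 cells were kept. Clusters were named from marker genes, so that each name means a cluster like that cell type. Although both libraries were labelled neutrophil, cells with neutrophil markers (Hdc, S100a8, Csf3r) made up 49.4% of the WT and 56.7% of the APP/PS1 cells. Nonclassical monocytes (Ace, Treml4) made up 20.1% and 12.6%, and classical monocytes (Ly6c2, Ccr2) 17.1% and 11.9%.

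Some CD300 receptors restrain the cell and others activate it. Cd300a and Cd300lf carry inhibitory motifs in the cell, to which the phosphatases encoded by Ptpn6 and Ptpn11 bind. Cd300lb, Cd300ld and Cd300e have short tails and signal through partner chains such as those encoded by Tyrobp, Hcst and Fcer1g, which pass the signal to the kinase Syk. The receptors are known for tuning the response of neutrophils and monocytes to infection and for the handling of apoptotic cells.

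The 5 genes lie together on chromosome 11 of the mouse, between positions 114890041 and 115133992 of mm10, a stretch of 244 kb that holds 11 CD300 genes in GENCODE M21. Cd300a (114890041 to 114904654) is on the plus strand. Cd300lb (114922781 to 114934386), Cd300ld (114982274 to 114989922), Cd300e (115051917 to 115062177) and Cd300lf (115116214 to 115133992) are on the minus strand. Cd300lf lies inside Rab37, a gene of the opposite strand that runs from 115091431 to 115162236 and had 9.20 CPM in neutrophils.

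Promoters are shown for 4 members because each had a different pattern over cell types, and that of Cd300ld3 because it resembles the Cd300ld promoter at a gene with few UMIs. Each sequence runs from 250 bases before to 50 bases after the start of the gene in the RefSeq table of build GRCm38.p6. Capitals mark AGGAAGT or its reverse complement ACTTCCT, the core that the myeloid factor PU.1 and other ETS factors bind, a motif chosen with these sequences in view.
Cd300a, chr11:114889791-114890090, plus strand: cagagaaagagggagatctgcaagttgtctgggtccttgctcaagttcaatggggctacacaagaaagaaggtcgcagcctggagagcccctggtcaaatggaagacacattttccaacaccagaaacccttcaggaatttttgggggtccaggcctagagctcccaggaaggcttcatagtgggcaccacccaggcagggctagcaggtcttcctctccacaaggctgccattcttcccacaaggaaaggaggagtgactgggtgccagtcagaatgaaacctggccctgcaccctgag
Cd300lf, chr11:115133943-115134242, minus strand: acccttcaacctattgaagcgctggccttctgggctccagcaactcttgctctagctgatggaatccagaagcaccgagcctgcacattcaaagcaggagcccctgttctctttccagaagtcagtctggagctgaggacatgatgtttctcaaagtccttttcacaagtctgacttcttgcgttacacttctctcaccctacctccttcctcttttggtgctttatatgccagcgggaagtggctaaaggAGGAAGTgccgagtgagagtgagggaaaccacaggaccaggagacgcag
Cd300ld, chr11:114989837-114990136, minus strand: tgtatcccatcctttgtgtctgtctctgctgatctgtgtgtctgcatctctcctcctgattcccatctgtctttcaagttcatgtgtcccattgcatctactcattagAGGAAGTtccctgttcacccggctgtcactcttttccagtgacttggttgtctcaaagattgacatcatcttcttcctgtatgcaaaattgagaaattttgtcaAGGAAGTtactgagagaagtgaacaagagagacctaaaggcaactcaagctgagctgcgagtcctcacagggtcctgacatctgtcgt
Cd300e, chr11:115061990-115062289, minus strand: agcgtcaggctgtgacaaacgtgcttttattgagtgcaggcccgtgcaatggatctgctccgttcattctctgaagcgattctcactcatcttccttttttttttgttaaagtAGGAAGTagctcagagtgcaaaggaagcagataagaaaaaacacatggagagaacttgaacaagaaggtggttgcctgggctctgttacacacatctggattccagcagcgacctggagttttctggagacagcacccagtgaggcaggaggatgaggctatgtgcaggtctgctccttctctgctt
Cd300ld3, chr11:115048281-115048580, minus strand: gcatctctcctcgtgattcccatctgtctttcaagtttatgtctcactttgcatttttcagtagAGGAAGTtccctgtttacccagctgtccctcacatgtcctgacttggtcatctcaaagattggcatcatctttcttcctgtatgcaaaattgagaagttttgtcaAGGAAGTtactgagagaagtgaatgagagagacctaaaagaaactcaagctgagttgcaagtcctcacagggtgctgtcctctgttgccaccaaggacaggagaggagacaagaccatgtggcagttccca
The motif stood on 1 strand or the other in 9.35% of all 32851 promoters of the table. It was found in 3 of the 5 members, at base 252 of the Cd300lf sequence, just after the start of the gene, at bases 109 and 213 of Cd300ld and at base 114 of Cd300e. The sequences of Cd300a and Cd300lb did not hold these letters. Over the 257 bases that align without a gap, the promoters of Cd300ld and Cd300ld3 were 70.0% identical.

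Transcript ends were compared because the libraries read them. Over the last 500 bases of the longest GENCODE transcript, none of the 451 windows of 50 bases of Cd300a, Cd300lb, Cd300ld or Cd300e occurred in a transcript of another gene, and 0.887% did for Cd300lf. In contrast, all windows of Cd300ld3 and Cd300ld5 and 88.9% of those of Cd300ld4 were shared within that group.

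Each member had its own distribution over the blood cells. Cd300lf was highest in neutrophils, Cd300ld in neutrophils and nonclassical monocytes, Cd300a in all 3 of these myeloid types, Cd300lb in neutrophils with less in monocytes, and Cd300e in nonclassical monocytes.

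**Figure D1:**
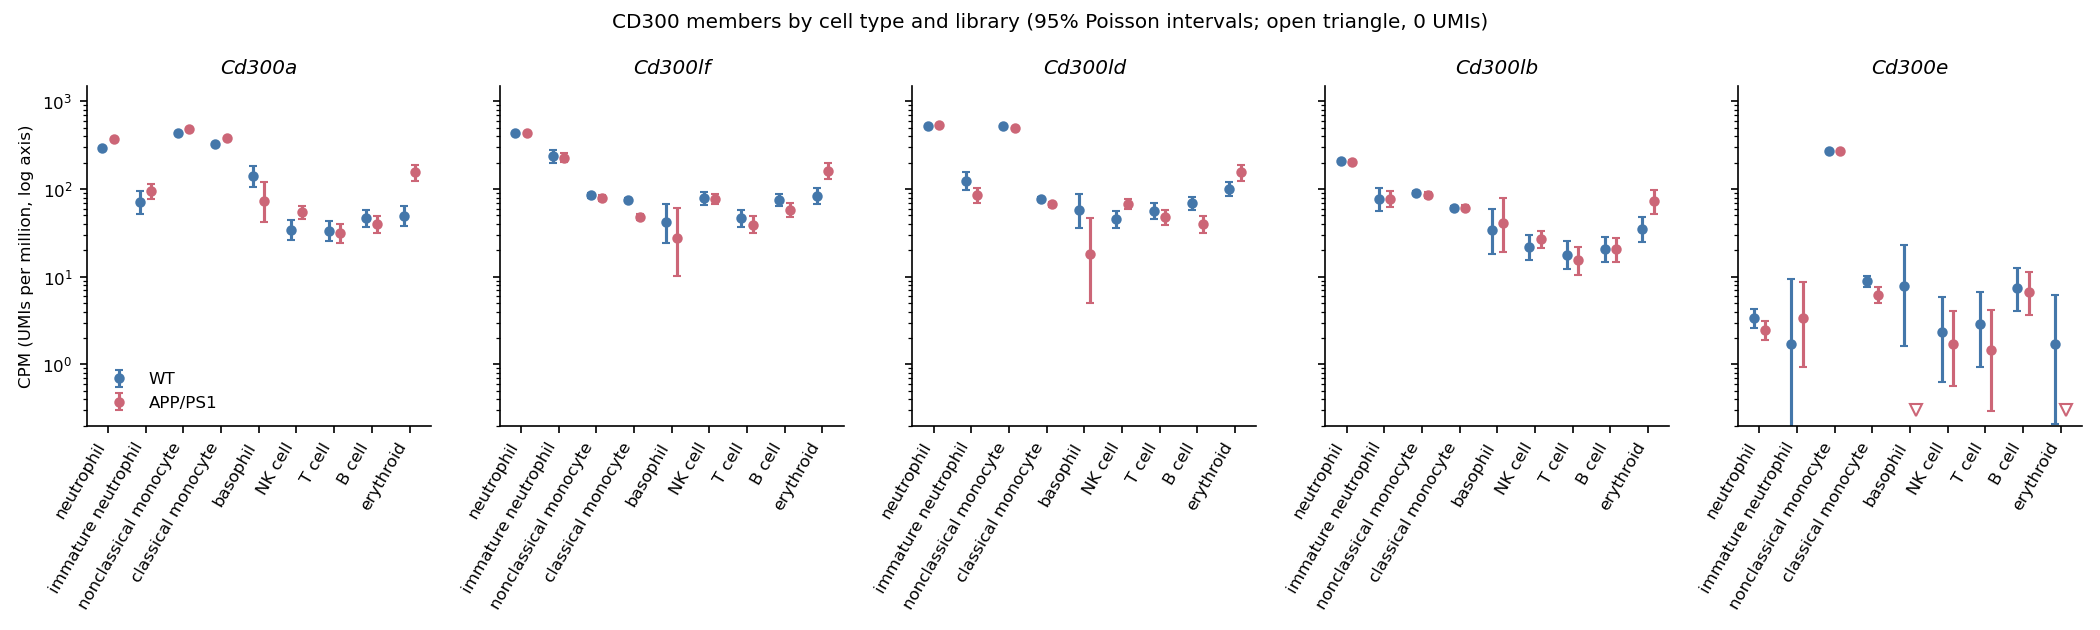
Level of each member (CPM, log axis) in 9 cell types, WT in blue and APP/PS1 in red, with 95% Poisson intervals, and open triangles where no UMI was counted. Cd300e stands at 272 and 269 CPM in nonclassical monocytes and at or under 8.91 CPM in every other named type, while Cd300lf stands at 435 and 433 CPM in neutrophils.

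Among the inhibitory receptors, Cd300a, which binds phosphatidylserine and phosphatidylethanolamine, had 295 CPM (95% interval 287 to 302) in WT neutrophils and 376 (369 to 384) in APP/PS1 neutrophils. In nonclassical monocytes it had 438 CPM (427 to 449) in WT and 489 (475 to 504) in APP/PS1. In classical monocytes the levels were 324 CPM (316 to 332) and 378 (368 to 388). In both libraries nonclassical monocytes were thus the highest, and neutrophils and classical monocytes differed little. The log2 ratio of classical monocytes to neutrophils was 0.14 (0.09 to 0.19) in WT and 0.005 in APP/PS1. Over both libraries together it was 0.02 (-0.01 to 0.06). Neutrophils that carried secondary granule genes (Camp, Ltf) had 71.2 and 94.0 CPM, a log2 ratio to the other neutrophils of -1.98 (-2.22 to -1.75).

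Cd300lf, which binds phosphatidylserine and sphingomyelin and is the entry receptor of murine norovirus, had 435 CPM (426 to 444) in WT and 433 (425 to 441) in APP/PS1 neutrophils. Granule-gene neutrophils held 236 and 228 CPM. The level was 84.5 and 79.4 CPM in nonclassical monocytes, and 74.3 and 48.5 CPM in classical monocytes. Over both libraries, neutrophils exceeded nonclassical monocytes 5.25-fold and classical monocytes 6.78-fold.

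Of the activating receptors, Cd300ld had 523 CPM (513 to 533) in WT and 537 (528 to 546) in APP/PS1 neutrophils, and 526 (514 to 538) and 499 (484 to 514) in nonclassical monocytes. Classical monocytes held 77.7 and 67.0 CPM. The gene thus separated the monocyte types, with a nonclassical to classical ratio of 7.02-fold, while nonclassical monocytes and neutrophils were at nearly one level (log2 ratio -0.04, -0.07 to -0.01).

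Cd300lb, whose product pairs with the Tyrobp chain, had 209 CPM (203 to 216) in WT and 206 (201 to 212) in APP/PS1 neutrophils. It had 90.7 and 86.0 CPM in nonclassical and 60.6 and 61.6 CPM in classical monocytes. Neutrophils exceeded these types 2.34-fold and 3.41-fold.

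Cd300e, a receptor known from human monocytes, had 272 CPM (264 to 281) in WT and 269 (258 to 280) in APP/PS1 nonclassical monocytes. Classical monocytes held 8.91 and 6.23 CPM, neutrophils 3.37 and 2.44 CPM. The nonclassical to classical ratio over both libraries was 34.6-fold. CD300 genes were kept out of the features used for clustering, so that the clusters did not rest on them.

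The levels were set beside those of T cells, lymphocytes that should lack these genes. In T cells Cd300a had 32.2 CPM over both libraries, Cd300lf 42.7, Cd300ld 51.9, Cd300lb 16.5 and Cd300e 2.10. Of the 898 T cells, 79.3% had no UMI of any member and 10.1% had UMIs of at least 2. The 4 members other than Cd300e stood in T cells in nearly the proportions of neutrophils. In WT T cells Cd300a made up 21.3%, Cd300lf 29.7%, Cd300ld 35.9% and Cd300lb 11.4% of the members' UMIs, and in WT neutrophils 20.1%, 29.7%, 35.7% and 14.3%.

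**Figure D2:**
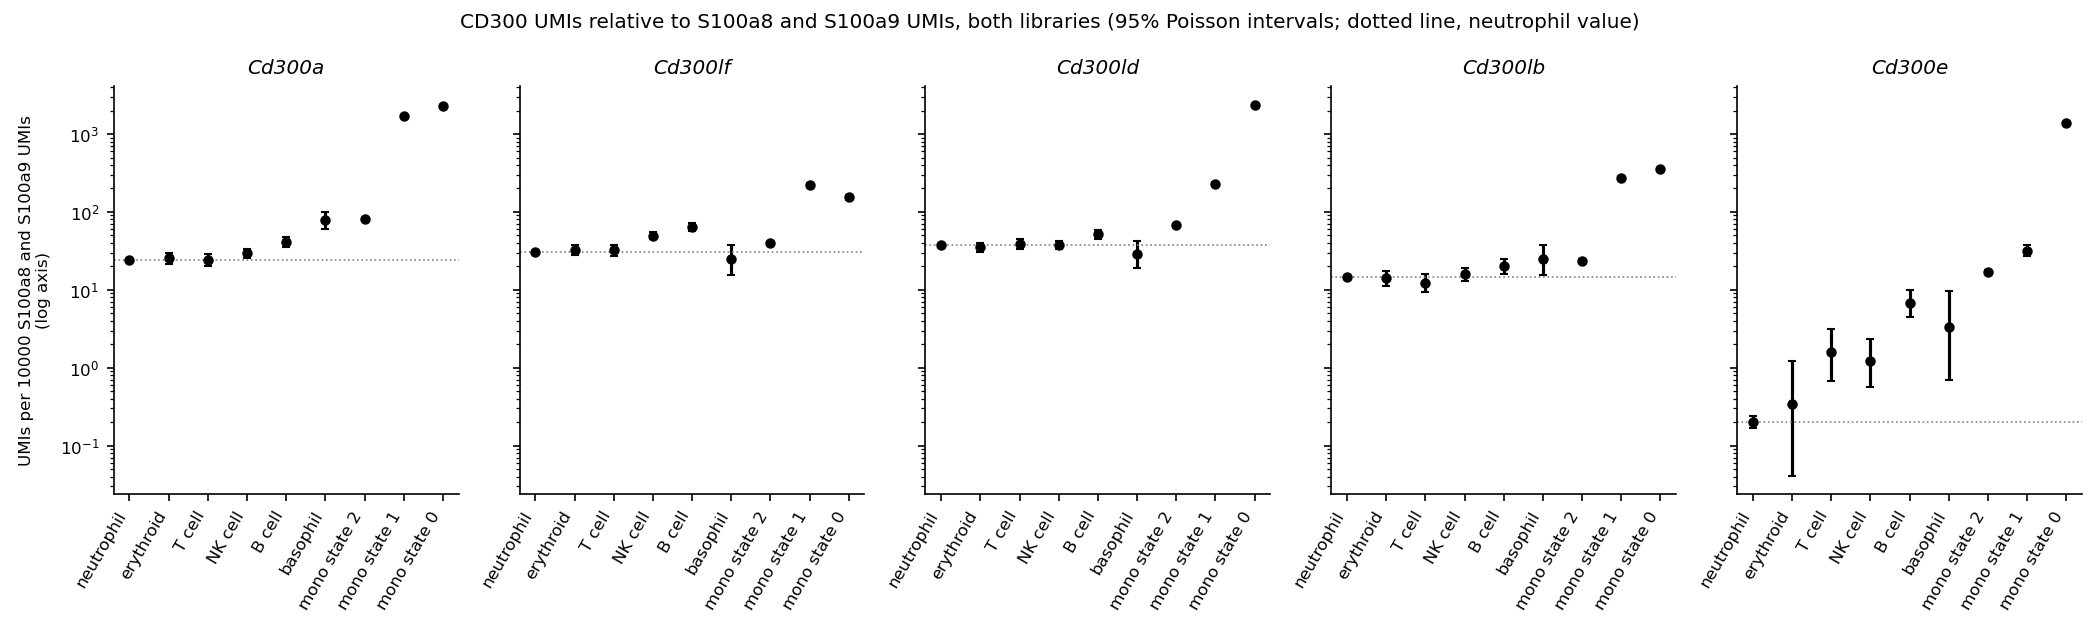
UMIs of each member per 10000 UMIs of the neutrophil genes S100a8 and S100a9 (log axis), both libraries together, with 95% Poisson intervals, where the dotted line is the neutrophil value. Erythroid and T cells lie on or near the neutrophil line for Cd300a, Cd300lf, Cd300ld and Cd300lb, while B cells lie above it. Monocyte states 0 (nonclassical) and 1 (classical) lie above the line for all members.

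S100a8 and S100a9, which neutrophils express at very high levels, served as the yardstick for RNA from neutrophils. Per 10000 UMIs of this pair, neutrophils had 24.1 UMIs of Cd300a, T cells 24.1 (20.1 to 28.8) and erythroid cells 25.4 (21.5 to 29.8). The same ratio for Cd300ld was 37.6 in neutrophils, 38.9 (33.6 to 44.7) in T cells and 35.3 (30.7 to 40.5) in erythroid cells. For Cd300lf it was 30.7, 32.0 (27.3 to 37.3) and 32.6 (28.2 to 37.6), while NK cells had 49.5 (44.5 to 54.9) and B cells 63.7 (56.2 to 71.9). B cells were also above neutrophils for Cd300a, at 41.5 (35.5 to 48.2), and for Cd300ld, at 51.7 (45.0 to 59.2). NK cells had 29.5 (25.7 to 33.8) for Cd300a and 37.6 (33.3 to 42.3) for Cd300ld. Within the libraries the match was looser. In WT the Cd300a ratio was 18.8 in neutrophils and 25.3 (19.2 to 32.7) in T cells, and in APP/PS1 it was 29.2 and 23.2 (17.9 to 29.6). In erythroid cells it was 16.6 (12.6 to 21.5) in WT and 38.0 (30.6 to 46.6) in APP/PS1, so that their pooled value averages 2 unlike libraries. The T cell level is used below as the level in cells that should lack these genes.

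Monocytes held a group of cells with neutrophil genes, which bears on Cd300lf and Cd300ld. When monocytes were clustered by themselves, 1582 of them formed a state led by Cxcr2, Retnlg and Hdc, with a median of 8348 UMIs, and 76.8% of these cells were called doublets. The other main states were nonclassical (state 0, 4099 cells) and classical (state 1, 3395 cells).

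**Figure D3:**
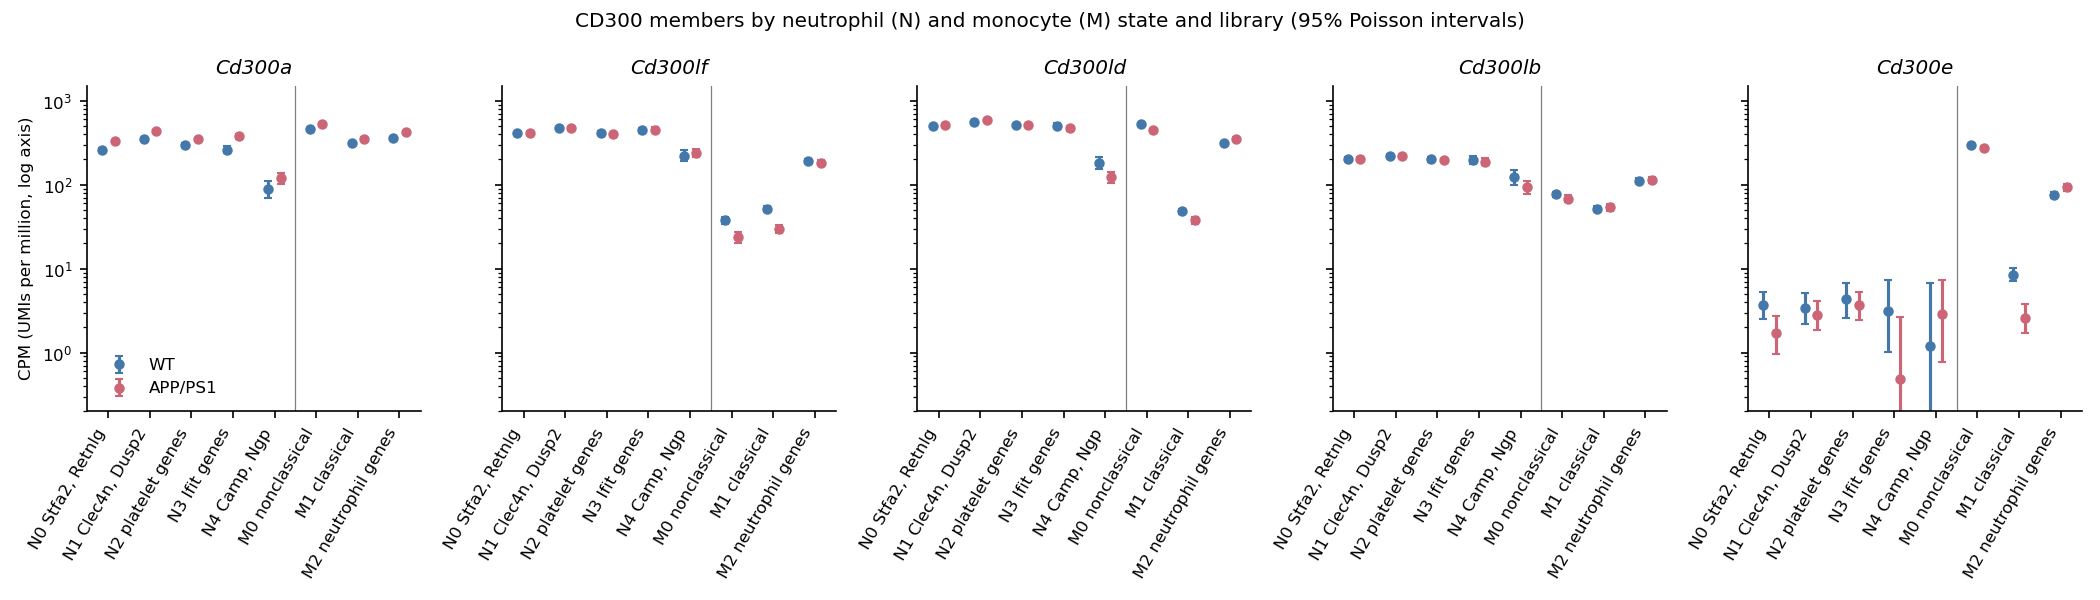
Level of each member (CPM, log axis) in 5 neutrophil states (N) and 3 monocyte states (M), WT in blue and APP/PS1 in red, with 95% Poisson intervals. Cd300lf stands between 183 and 193 CPM in the monocyte state with neutrophil genes but at or under 52.1 CPM in the other monocyte states, and all members other than Cd300e are lowest among neutrophils in state N4.

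In state 0 Cd300lf had 37.8 CPM in WT and 23.6 in APP/PS1, and in state 1 it had 52.1 and 29.5. The T cell level was 46.6 CPM in WT and 39.4 in APP/PS1, which WT state 1 alone exceeded, with a state 1 to T cell log2 ratio of 0.01 (-0.23 to 0.26) over both libraries. Per 10000 S100a8 and S100a9 UMIs, however, Cd300lf had 154 UMIs (141 to 166) in state 0 and 224 (211 to 238) in state 1, against 30.7 in neutrophils. Monocyte states 0 and 1 had 2103 and 1920 CPM of the S100 pair, T cells 13350. Whether the Cd300lf UMIs of monocytes are their own was not tested.

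Cd300ld had 522 CPM in WT and 448 in APP/PS1 in nonclassical state 0, and 48.5 and 37.5 in classical state 1, where the T cell level was 51.9. Without the cells with neutrophil genes, the difference between the monocyte types was thus 11.2-fold, larger than over the whole types. Per 10000 S100a8 and S100a9 UMIs, however, Cd300ld had 229.5 UMIs (216 to 243) in state 1, against 37.6 in neutrophils and 38.9 in T cells. Whether the Cd300ld UMIs of state 1 are its own was not tested. Cd300a had 331 CPM in classical state 1 over both libraries, 10.3-fold the T cell level. Cd300e had 290 CPM in state 0 and 6.12 in state 1, a ratio of 47.4-fold, and it led the list of genes that set state 0 apart, ahead of Cd36 and Fabp4. Cd300lb stood at 73.9 and 52.5 CPM, 4.48-fold and 3.18-fold the T cell level.

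Basophils, of which there were 116, had 117 CPM of Cd300a over both libraries, 3.64-fold the T cell level (log2 ratio 1.86, 1.42 to 2.30). By library the level was 142 CPM (107 to 185) in WT and 73.6 (42.1 to 120) in APP/PS1, from 54 and 16 UMIs. Cd300lf and Cd300ld did not exceed the T cell level in basophils, with log2 ratios of -0.21 (-0.93 to 0.43) and -0.25 (-0.90 to 0.34).

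Most neutrophils held transcripts of several members at once. A share of 96.9% in WT and 97.1% in APP/PS1 had a UMI of at least 1 of the 5 genes, and 79.7% and 82.8% had UMIs of at least 2. In nonclassical monocytes 88.6% and 86.9% had at least 2. These shares grow with depth, and the median neutrophil had 2542 UMIs in WT and 2663 in APP/PS1, against 4277 and 4357 in nonclassical monocytes. With each cell thinned to 1000 UMIs, 34.3% of WT and 37.6% of APP/PS1 neutrophils had at least 2 members, 31.7% and 31.9% of nonclassical monocytes, and 1.04% and 1.17% of T cells.

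Cd300a and Cd300ld, an inhibitory and an activating receptor, were found together in 39.5% of WT neutrophils, 47.2% of APP/PS1 neutrophils, and in 70.1% and 67.8% of nonclassical monocytes. T cells had both in 7.79% and 5.07%. With cells thinned to 1000 UMIs the pair was found in 10.4% and 13.2% of neutrophils and in 13.8% and 14.1% of nonclassical monocytes, so that these types differed far less at equal depth. Among the 1844 WT nonclassical monocytes with a UMI of Cd300e, 87.3% also had one of Cd300ld, against 83.6% of all WT nonclassical monocytes.

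By cell with all UMIs, Cd300a was seen in 53.9% of WT and 63.2% of APP/PS1 neutrophils, in 82.2% and 83.2% of nonclassical monocytes and in 10.9% and 8.58% of T cells, whose median depths were 4137 and 3485 UMIs. After thinning the shares in neutrophils were 25.7% and 31.8%, in nonclassical monocytes 35.6% and 38.5%, and in T cells 2.08% and 2.92%. Cd300e was seen in 62.9% and 58.7% of nonclassical monocytes and in 0.932% and 0.731% of neutrophils, where T cells had 1.04% and 0.585%. Over both libraries these shares were 0.822% of neutrophils (0.687 to 0.976) and 0.780% of T cells (0.314 to 1.60), so that Cd300e in neutrophils could not be told from the T cell level at this depth.

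Neutrophils, clustered together with the granule-gene neutrophils and the unnamed cluster of platelet and neutrophil genes but without CD300 genes as features, divided into 6 states. Genes that differed by over 0.5 log2 between the libraries were also left out as features. State 0 (6538 cells) was led by the stefin genes Stfa2 and Stfa1 and by Retnlg, state 1 (5259 cells) by Clec4n, Dusp2 and Traf1, state 2 (3801 cells) by platelet genes such as Itga2b, state 3 (1296 cells) by the interferon-induced genes Ifit2 and Ifit3, and state 4 (377 cells) by the granule genes Camp, Ngp and Ltf. State 5, with 33 cells led by Tubb2a, Lmna and Smtn, had 0 to 4 UMIs of each member in each library and is not described further.

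State 1 had more Cd300a than state 0. It stood at 400 CPM in state 1 and 298 in state 0 over both libraries, a log2 ratio of 0.43 (0.37 to 0.48). The ratio was 0.21 (0.16 to 0.25) for Cd300lf, 0.19 (0.14 to 0.23) for Cd300ld and 0.12 (0.06 to 0.19) for Cd300lb. The order of the 2 states for Cd300a was the same in each library, with 348 against 262 CPM in WT and 439 against 328 in APP/PS1. S100a8 and S100a9 together took 102300 CPM in state 1 and 177400 in state 0, and such abundant genes enter every CPM. With haemoglobin, mitochondrial, ribosomal protein and S100 UMIs left out of the totals, the log2 ratio of state 1 to state 0 was 0.30 for Cd300a, but 0.08 for Cd300lf, 0.06 for Cd300ld and -0.00014 for Cd300lb.

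State 4, with granule genes made early in neutrophil development, had the lowest level of 4 members. Its log2 ratio to state 0 was -1.46 (-1.66 to -1.28) for Cd300a, -1.81 (-1.98 to -1.65) for Cd300ld, -0.96 (-1.16 to -0.77) for Cd300lb and -0.83 (-0.96 to -0.70) for Cd300lf. Over both libraries Cd300lf had 232 CPM in these cells against 412 in state 0, and its interval overlapped that of Cd300lb. By library Cd300lf had 223 against 415 CPM in WT and 238 against 409 in APP/PS1. Cd300lb had 123 against 203 CPM in WT and 93.2 against 204 in APP/PS1. Cd300lb thus kept the larger part of its level in WT, and Cd300lf in APP/PS1. S100a8 and S100a9 took 297900 CPM in this state, and without the abundant genes the ratios were -1.23, -1.58, -0.73 and -0.59 in the same order.

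The interferon state 3 differed little from state 0. Cd300a had a log2 ratio of 0.14 (0.05 to 0.23) and Cd300lf of 0.13 (0.05 to 0.20), while the intervals of Cd300ld (-0.15 to 0.00) and Cd300lb (-0.20 to 0.04) reached 0. These ratios moved in 3 alternatives, CPM without abundant genes among them. They ran from 0.07 to 0.21 for Cd300a and 0.06 to 0.22 for Cd300lf. For Cd300ld they ran from -0.14 to -0.05 and for Cd300lb from -0.15 to -0.06, so that which members differ from state 0 depends on the scaling. By library the Cd300a ratio was -0.01 (-0.16 to 0.15) in WT and 0.21 (0.09 to 0.32) in APP/PS1, that of Cd300lf 0.10 (-0.02 to 0.22) and 0.15 (0.04 to 0.25), and that of Cd300ld 0.00 (-0.11 to 0.11) and -0.13 (-0.23 to -0.03). In the platelet-gene state 2 the levels of Cd300lf, at 417 CPM in WT and 401 in APP/PS1, and of Cd300ld, at 508 and 513, lay close to those of state 0. By CPM Cd300a was higher there than in state 0, with log2 ratios of 0.19 (0.09 to 0.29) in WT and 0.09 (0.01 to 0.17) in APP/PS1. S100a8 and S100a9 took 128200 CPM in state 2 against 177400 in state 0. The ratio without abundant genes was not computed for state 2, so that how far these small differences rest on the scaling was not tested.

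The design asks which genes differ between APP/PS1 and WT. Genes with at least 50 UMIs over both libraries in a cell type were compared, and a gene was counted as past the fold where the log2 ratio was beyond 0.5, in either direction. In neutrophils 9265 genes were compared, of which 6.09% were higher and 4.78% were lower in APP/PS1 by this rule. None of the 5 members was past the fold in either direction, although Cd300e, at 3.37 and 2.44 CPM (log2 ratio -0.47, -0.99 to 0.04), was past it in all 11 alternative settings. Thinning to 1000 UMIs, which is among these settings, is a random draw, and over 10 draws the ratio ran from -0.95 to -0.08. In nonclassical monocytes 3.32% of 9772 genes were higher and 3.67% lower, and again no member was past the fold. Cd300lf was lower past it without percentile limits on cells (-0.67) and without the monocyte state led by neutrophil genes (-0.53). In classical monocytes 3.46% of 10349 genes were higher and 4.06% lower, and 2 of the 5 members, Cd300lf and Cd300e, were lower. With the limits on UMIs and genes per cell set over both libraries together, neither was (-0.39 and -0.32). Cd300e was also short of the fold with called doublets left out (-0.17), with means over cells (-0.39) and with TMM library sizes (-0.49). Cd300lf was short of it in the single thinning used as an alternative (-0.44). Over 10 draws of thinned cells Cd300lf ran from -0.98 to -0.35, with a median of -0.65, which is past the fold. Cd300e ran from -1.49 to 0.20, with a median of -0.28, which is short of it.

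**Figure D4:**
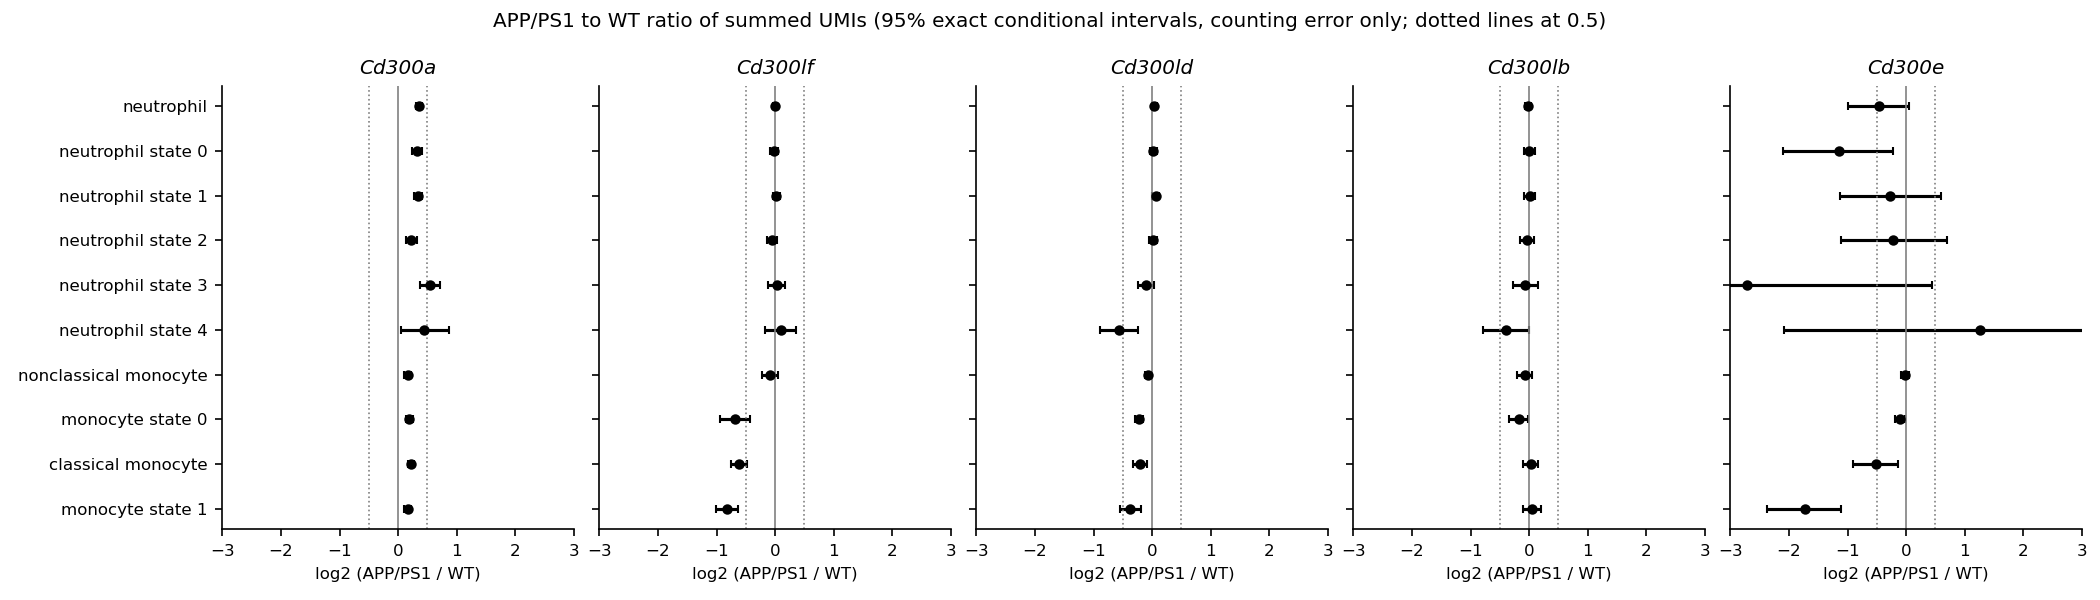
Log2 ratio of APP/PS1 to WT for each member, with 95% exact intervals for counting error, in neutrophils and their states 0 to 4 and in monocytes, where the dotted lines stand at 0.5 in both directions and 2 intervals of Cd300e run past the axis. Cd300a lies to the right of 0 in all 10 groups of cells, and Cd300lf, Cd300ld and Cd300lb lie near 0 in neutrophils.

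Cd300a was higher in APP/PS1 in neutrophils and in both monocyte types. The log2 ratio was 0.35 (0.31 to 0.40) in neutrophils, that is 1.28-fold, and 0.16 (0.10 to 0.21) and 0.22 (0.17 to 0.27) in nonclassical and classical monocytes. Over all compared genes the median was 0.05 in neutrophils and 95% of genes were under 0.54, and 11.95% of them had a higher ratio than Cd300a. In nonclassical monocytes 21.4% and in classical monocytes 12.8% of compared genes had a higher one.

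Within neutrophil states 0 to 4 Cd300a had log2 ratios of 0.32, 0.34, 0.22, 0.54 and 0.45. The ratio was largest in the interferon state 3 (0.37 to 0.71), with 261 CPM (237 to 288) in WT and 379 (353 to 407) in APP/PS1. It was smallest in state 2 (0.13 to 0.32). Whether the states differ was not tested, and no share over all genes was counted for such a contrast. The unnamed cluster of platelet and neutrophil genes stood apart with 319 and 336 CPM, a ratio of 0.08 (-0.10 to 0.26). In other cell types the direction varied. Cd300a had 33.4 and 31.2 CPM in T cells, 34.1 and 54.2 in NK cells and 49.7 and 155 in erythroid cells, and in basophils it was lower in APP/PS1 (log2 ratio -0.95, -1.85 to -0.12). In erythroid cells Cd300lf had 83.9 CPM in WT and 160 in APP/PS1, Cd300ld 100 and 155, and Cd300lb 35.1 and 72.55. Cd300e had 2 UMIs and 0. Per 10000 S100a8 and S100a9 UMIs, erythroid Cd300a had 16.6 (12.6 to 21.5) in WT and 38.0 (30.6 to 46.6) in APP/PS1. Cd300lf had 28.05 and 39.2 by that measure, Cd300ld 33.5 and 38.0, and Cd300lb 11.7 and 17.75. All members together, Cd300a included, had 271 CPM in WT and 543 in APP/PS1 erythroid cells, and S100a8 and S100a9 had 29930 and 40880.

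The other 3 members of neutrophils hardly differed between the libraries. The log2 ratio was -0.01 (-0.05 to 0.04) for Cd300lf, 0.04 (0.00 to 0.08) for Cd300ld and -0.02 (-0.08 to 0.04) for Cd300lb, so that counting error left room for differences of up to 0.08 in either direction. With library sizes scaled by TMM, a trimmed mean over genes, the ratio was -0.06 for Cd300lf and -0.02 for Cd300ld, so that the sign for Cd300ld depends on the scaling. Cd300a, at 0.30 with that scaling, kept its sign. Per library, Cd300a made up 24.2% of the members' UMIs in APP/PS1 neutrophils and 20.1% in WT. In granule-gene state 4 Cd300ld was lower in APP/PS1, with 123 CPM against 182 (log2 ratio -0.57, -0.89 to -0.24).

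In monocytes the direction of Cd300lf and Cd300ld differed from that of Cd300a. Cd300ld had log2 ratios of -0.22 (-0.29 to -0.16) in nonclassical state 0 and -0.37 (-0.55 to -0.19) in classical state 1. Cd300lf had -0.62 (-0.75 to -0.48) in all classical monocytes and -0.82 (-1.02 to -0.63) in state 1, and -0.68 (-0.95 to -0.42) in state 0. In all nonclassical monocytes, with the neutrophil-gene cells in, its ratio was -0.09 (-0.23 to 0.04). The lower Cd300ld level of all classical monocytes (-0.21) was not kept with the limits on cells set over both libraries (0.03) or with called doublets left out (-0.04), and over 10 draws of thinned cells it ran from -0.45 to 0.11.

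Values that moved with Cd300lf were found beside it. The neutrophil gene S100a9 had a log2 ratio of -0.36 in classical monocytes, with 6001 CPM in WT and 4662 in APP/PS1, and the summed level of all 9 neutrophil markers was 12020 and 9060 CPM there. Per 10000 S100a8 and S100a9 UMIs, Cd300lf had 72.3 (68.8 to 76.0) in WT and 63.5 (58.8 to 68.5) in APP/PS1 over all classical monocytes, and 49.6 and 51.3 over all nonclassical monocytes. The difference was wider in the states without neutrophil genes. Classical state 1 had 263 (245 to 282) in WT and 161 (144 to 180) in APP/PS1, and nonclassical state 0 had 174 (158 to 191) and 119 (102 to 138). In the state with neutrophil genes the order was the opposite, with 37.8 and 42.7. The part of neutrophil RNA in the difference was not tested beyond this.

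Cd300e was at nearly one level in nonclassical monocytes of both libraries (log2 ratio -0.02, -0.09 to 0.05), and at -0.10 (-0.18 to -0.02) in their state 0. In classical monocytes its ratio was -0.52 (-0.90 to -0.14), from 185 UMIs in WT and 86 in APP/PS1. In classical state 1 it was -1.72 (-2.38 to -1.12), with 8.51 and 2.58 CPM, and the T cell level was 2.88 and 1.44 CPM. The state 1 values rest on 132 UMIs in 85 WT cells and 27 UMIs in 19 APP/PS1 cells. With called doublets left out the ratio of all classical monocytes was -0.17, and that of state 1 was not computed.

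The partner genes through which the receptors signal were listed as adaptors, kinases, phosphatases and downstream enzymes, 15 of which are described, and each had enough UMIs for the comparison in the 3 myeloid types. None of them was past the fold in neutrophils or classical monocytes in either direction, and 1, Inpp5d, was lower in nonclassical monocytes. The median log2 ratio of the 15 was 0.03 in neutrophils, -0.02 in nonclassical and -0.04 in classical monocytes, against 0.05, -0.01 and -0.03 over all compared genes.

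**Figure D5:**
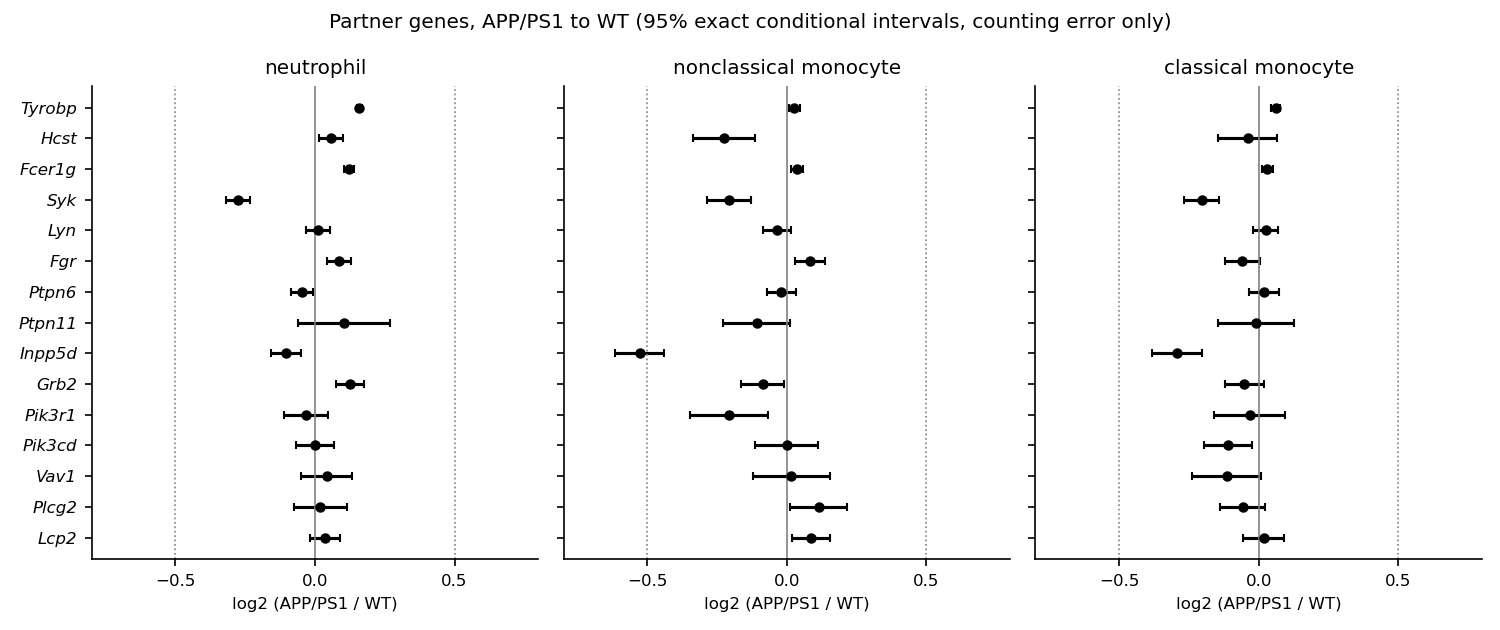
Log2 ratio of APP/PS1 to WT for 15 partner genes in neutrophils, nonclassical and classical monocytes, with 95% exact intervals for counting error and dotted lines at 0.5 in both directions. Inpp5d in nonclassical monocytes, at -0.53, is the single point past a dotted line, and Syk in neutrophils lies at -0.28.

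Of the adaptor chains, Tyrobp had 7675 CPM in WT and 8568 in APP/PS1 neutrophils (log2 ratio 0.16) and Fcer1g had 2560 and 2786 (0.12). Hcst, which couples to phosphoinositide 3-kinase, had 380 and 396 CPM in neutrophils.

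Syk, the kinase recruited by the adaptor chains, had 408 CPM in WT and 337 in APP/PS1 neutrophils, a log2 ratio of -0.28 (-0.32 to -0.23). It was lower by a like amount in nonclassical (-0.21) and classical monocytes (-0.20). Inpp5d, the lipid phosphatase SHIP1 that inhibitory receptors recruit, had log2 ratios of -0.10 (-0.16 to -0.05) in neutrophils, -0.53 (-0.61 to -0.44) in nonclassical and -0.29 (-0.38 to -0.20) in classical monocytes. The phosphatase Ptpn6 stood at 453 and 439 CPM in neutrophils (-0.05) and Ptpn11 at 26.1 and 28.0.

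The 7 other CD300 genes of the matrices fell into 3 groups. Cd300c2 had 651 CPM in WT and 624 in APP/PS1 nonclassical monocytes, and 152 and 162 in classical monocytes. In neutrophils Cd300c2 had 245 CPM in WT and 307 in APP/PS1, a log2 ratio of 0.32 (0.27 to 0.37), which is near that of Cd300a, while in nonclassical monocytes it was -0.06 (-0.11 to -0.01). Of the end windows of Cd300c2, 3.77% were shared with a Cd300a transcript.

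Cd300lg, elsewhere on chromosome 11 (102041509 to 102055620), had 49.5 CPM in WT and 43.9 in APP/PS1 classical monocytes, but 4.24 and 3.23 in nonclassical monocytes and 0.929 and 0.735 in neutrophils. It is known from endothelial cells. Cd300c had 33 UMIs in WT and 70 in APP/PS1 neutrophils (log2 ratio 0.75, 0.13 to 1.39), Cd300ld3 had 15 and 19, and Cd300ld3 reached 8.06 and 7.02 CPM in nonclassical monocytes. Cd300ld2, Cd300ld4 and Cd300ld5 had no UMI in any named cell type. In neutrophils a count of 0 allows up to 0.0648 CPM, for counting error only. As the ends of Cd300ld3, Cd300ld4 and Cd300ld5 are shared, counting could not assign many of their reads to 1 gene, so that their values are uncertain.

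For each member the genes with the most similar levels over 9 cell types in 2 libraries, 18 points in all, were sought among 10026 genes. The points share cells and libraries, so that the correlations are descriptions. Cd300a was closest to Cebpb (Pearson r of log2(CPM + 1) 0.96), Lst1 (0.96) and Sirpb1c (0.95). Cd300lf was closest to Lrg1 (0.96), Cd33 (0.95) and Nudt4 (0.95), which had 824, 548 and 594 CPM in WT neutrophils and 105, 72.9 and 129 in nonclassical monocytes.

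Cd300lb was closest to Skap2, Nfam1 and Adipor1, with r of 0.97, 0.97 and 0.96. Cd300ld, whose pattern joins neutrophils and nonclassical monocytes, had no gene above 0.93, the value of Gm31814, followed by Pla2g7 and Pilra (both 0.91). Cd300e was closest to Fabp4 (0.97), a fatty acid binding protein with 380 CPM in WT nonclassical monocytes, then to Azin2 (0.95) and to Eno3 (0.94), which is also a marker used to name these cells. Between the members r ran from -0.07 (Cd300lf and Cd300e) to 0.82 (Cd300a and Cd300lb).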

How the data were processed

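The authors made UMI counts per gene and cell with Cell Ranger 5.0.0 and the mm10 reference, per the labels and the methods, and the deposited counts cover all barcodes called cells and are not normalized. As in the methods, the lowest and highest cells by genes and by UMIs (5th and 95th percentile, here within each library) and those with over 10% mitochondrial UMIs were dropped. Clusters were made in Seurat 5.3.0 at a resolution of 0.2 without CD300 and partner genes as features, and named where at least 3 markers of a list were enriched. This naming rule was written after clusters had been seen, and 2 clusters stayed unnamed, 1 with platelet and neutrophil genes and 1 with T, NK and monocyte genes.

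Called doublets (Scrublet, scanpy 1.11.5) were kept, and left out in an alternative. Its automatic threshold called 2 cells in APP/PS1, so that the WT threshold was used for both, which called 7.69% of WT and 6.41% of APP/PS1 cells. Sums have exact Poisson, ratios exact conditional binomial and shares Clopper-Pearson intervals at the 95% level. In libraries simulated with Poisson counts at the total depth of each library, 95.5% of ratio intervals covered the set ratio, over 13141 genes. The intervals assume such counts, so that this checks the calculation alone. Spread between cells, mice or libraries was not simulated. Levels are 3′ UMI counts without scaling to transcript length, so that members were not ranked against each other. The limit for a count of 0 is 3 counts. No test was made with 2 libraries.

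Described were the members, all other CD300 genes, 15 partner genes and the 3 genes most like each member by Pearson r, sought where a type of each library had 50 UMIs or more. Alternatives were other cell filters, doublet removal, edgeR 4.0.16 TMM factors, CPM without abundant genes, means over cells, thinning to 1000 UMIs, naming cell by cell and other resolutions. The members, lists and tests were chosen with earlier results of these data known, and the alternatives that leave out or add mixed cells, or take abundant genes out of the CPM of states, were added after the data were seen. A partner gene on the list is not reported here.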

Additional observations from a re-analysis of the deposited data

Results flagged for a closer look

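The unnamed cluster with T, NK and monocyte genes, 39 cells in WT and 27 in APP/PS1, entered no comparison above, and 2 of the 3 members with at least 50 UMIs were higher there in APP/PS1 than in the WT control by more than counting error. By the same rule 8.82% of 1792 genes were higher and 9.32% were lower in this cluster. Cd300e had 81.8 CPM in WT and 194 in APP/PS1, a log2 ratio of 1.25 (95% interval 0.52 to 1.99). Cd300ld had 138 and 239 CPM, a log2 ratio of 0.792 (0.19 to 1.40). The median depth of this cluster was 8022 UMIs and it carried genes of several cell types, and the part of mixed cells was not tested.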

How the results depend on the processing

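Of 271 values from alternatives for 51 results, 186 stayed within the counting error of the main value, 84 moved beyond it and 1 turned a clear difference around. Ratios close to 0, such as those of Cd300lf and Cd300ld between the genotypes in neutrophils, also crossed 0 in some settings. The Cd300a ratio of the genotypes stayed above 0 under all alternatives, between 0.28 and 0.38 in neutrophils, 0.13 and 0.22 in nonclassical and 0.15 and 0.31 in classical monocytes (log2 ratio of APP/PS1 to WT). The difference that turned around was Cd300e in classical monocytes against neutrophils, 1.46 in the main setting and -2.85 with cells named one by one. The causes were not tested. All values below are log2 ratios. With cells named one by one, the ratio of APP/PS1 to WT in neutrophils was 0.28 for Cd300a, 0.0855 for Cd300lf, 0.10 for Cd300ld and 0.0739 for Cd300lb, the ratio of APP/PS1 to WT in nonclassical monocytes was 0.22 for Cd300a, -0.21 for Cd300ld and -0.14 for Cd300e, the ratio of APP/PS1 to WT in classical monocytes was -0.76 for Cd300lf, the ratio of nonclassical monocytes to neutrophils was 0.53 for Cd300a, -3.11 for Cd300lf and 4.23 for Cd300e, and the ratio of classical monocytes to neutrophils was -0.087 for Cd300a, -2.89 for Cd300lf, -3.56 for Cd300ld and -2.85 for Cd300e. With TMM library sizes, the ratio of APP/PS1 to WT in neutrophils was 0.30 for Cd300a, -0.0596 for Cd300lf and -0.0155 for Cd300ld. With abundant genes left out of CPM totals, the ratio of APP/PS1 to WT in neutrophils was 0.30 for Cd300a, -0.0571 for Cd300lf and -0.0129 for Cd300ld, the ratio of neutrophil state 1 to state 0 was 0.30 for Cd300a, 0.0833 for Cd300lf, 0.0612 for Cd300ld and -0.000139 for Cd300lb, the ratio of neutrophil state 4 to state 0 was -1.23 for Cd300a, -0.59 for Cd300lf, -1.58 for Cd300ld and -0.73 for Cd300lb, and the ratio of monocyte state 0 to state 1 was 0.49 for Cd300a. With cells thinned to 1000 UMIs, the ratio of APP/PS1 to WT in neutrophils was 0.0369 for Cd300lf, the ratio of APP/PS1 to WT in nonclassical monocytes was 0.15 for Cd300lf and 0.19 for Cd300lb, and the ratio of APP/PS1 to WT in classical monocytes was 0.31 for Cd300a, -0.44 for Cd300lf, -0.0319 for Cd300ld and 0.29 for Cd300lb. Without percentile limits on cells, the ratio of APP/PS1 to WT in nonclassical monocytes was -0.67 for Cd300lf and -0.16 for Cd300ld, the ratio of APP/PS1 to WT in classical monocytes was 0.15 for Cd300a, -0.84 for Cd300lf, -0.42 for Cd300ld and -0.998 for Cd300e, the ratio of nonclassical monocytes to neutrophils was 0.49 for Cd300a, -3.73 for Cd300lf, -1.48 for Cd300lb and 6.84 for Cd300e, and the ratio of classical monocytes to neutrophils was -3.34 for Cd300lf, -3.21 for Cd300ld, -1.98 for Cd300lb and 2.21 for Cd300e. As a mean over cells, the ratio of APP/PS1 to WT in nonclassical monocytes was 0.14 for Cd300lf. Without the monocyte state led by neutrophil genes, the ratio of APP/PS1 to WT in nonclassical monocytes was -0.53 for Cd300lf and -0.15 for Cd300ld, the ratio of APP/PS1 to WT in classical monocytes was -0.88 for Cd300lf, the ratio of nonclassical monocytes to neutrophils was 0.46 for Cd300a, -3.68 for Cd300lf and -1.48 for Cd300lb, and the ratio of classical monocytes to neutrophils was -3.41 for Cd300lf, -3.39 for Cd300ld and -1.99 for Cd300lb. With called doublets left out, the ratio of APP/PS1 to WT in nonclassical monocytes was -0.15 for Cd300ld, the ratio of APP/PS1 to WT in classical monocytes was -0.0374 for Cd300ld, the ratio of nonclassical monocytes to neutrophils was 0.48 for Cd300a, -3.36 for Cd300lf and -1.44 for Cd300lb, the ratio of classical monocytes to neutrophils was -3.18 for Cd300lf, -3.25 for Cd300ld and -1.93 for Cd300lb, and the ratio of monocyte state 0 to state 1 was 3.58 for Cd300ld and 6.08 for Cd300e. With percentile limits over both libraries together, the ratio of APP/PS1 to WT in classical monocytes was -0.39 for Cd300lf and 0.027 for Cd300ld. By shares of thinned cells with a UMI, the ratio of nonclassical monocytes to neutrophils was 0.34 for Cd300a, -2.51 for Cd300lf and 6.22 for Cd300e, and the ratio of classical monocytes to neutrophils was -2.61 for Cd300ld and -1.61 for Cd300lb. At the next resolution with more clusters, the ratio of neutrophil state 1 to state 0 was 0.64 for Cd300a, 0.27 for Cd300lf and 0.27 for Cd300ld, and the ratio of neutrophil state 3 to state 0 was 0.22 for Cd300lf. Without anchors between libraries, the ratio of neutrophil state 4 to state 0 was -1.96 for Cd300a, -2.46 for Cd300ld and -1.42 for Cd300lb. Thinning is a random draw. Over 10 draws the ratio of APP/PS1 to WT for Cd300a ran from 0.32 to 0.39 in neutrophils, 0.05 to 0.19 in nonclassical and 0.08 to 0.31 in classical monocytes. In classical monocytes it ran from -0.45 to 0.11 for Cd300ld, -0.98 to -0.35 for Cd300lf and -1.49 to 0.20 for Cd300e. For Cd300lb it ran from -0.20 to 0.15 in nonclassical and -0.12 to 0.21 in classical monocytes. The single thinned Cd300lb values of 0.19 and 0.29 lie outside these ranges. Single thinned values of low counts are thus imprecise. Cd300e passed the fold in neutrophils in all 11 alternatives but not in the main setting, and with thinning it ran from -0.95 to -0.08. With percentile limits over both libraries no cluster was named nonclassical monocyte, and without anchors no state matched neutrophil state 1 or 3, so that these gave no value. No paired analysis was possible because each genotype had 1 library, and for the same reason no replicate could be left out. Depth limits Cd300e outside nonclassical monocytes, where it had 132 UMIs in all neutrophils.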
